A study of Homo sapiens with 18 samples.

Results

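RNA levels of 10 genes that answer to the ERK kinase cascade were followed across TRIM27 knockout and PARP1 perturbation in MDA-MB-231, an established line of human breast cancer cells. The genes are the transcription factors EGR1, EGR2 and EGR3, the immediate early gene IER2, the MAP kinase phosphatases DUSP1, DUSP4, DUSP5 and DUSP6, and the Sprouty inhibitors SPRY2 and SPRY4. They were taken by symbol, through their Ensembl identifiers, as 10 of the 62830 rows of the gene table. The 10 genes were chosen with earlier results of these data known, so counts of them beside all genes are descriptions only. Of these, 8 reached 1 FPKM (fragments scaled by transcript length and library size) in at least 3 of the 18 libraries and were tested; EGR2 and EGR3 stayed below that level in every library and are described separately.

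The 18 libraries form 6 groups of 3, all under a single batch label. TRIM27 knockout (KO) cells were sequenced after olaparib (2 µM, 24 h), after an siRNA against PARP1 (siPARP1, 100 pM as labelled, 48 h) and without treatment, and wild-type (WT) cells in the same 3 states. Olaparib blocks the catalytic activity of PARP1 and PARP2, which act in DNA repair, and TRIM27 is a tripartite motif protein with ubiquitin ligase activity. The protocols mention DMSO and a non-targeting siRNA, but no library is labelled as having received either, so solvent or transfection and treatment cannot be told apart here. All cells grew in medium with 10% fetal bovine serum. The labels do not say whether the knockout is a single clone or whether a group's libraries are separate cultures, so the p-values speak only of the spread among these samples, possibly a technical one. In bulk RNA, a change in the share of expressing cells and a change in RNA per cell cannot be told apart.

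In the ERK cascade, receptors on the cell surface activate RAS, then RAF, MEK and ERK, and active ERK switches on immediate early genes within minutes, EGR1 and FOS among them. ERK also raises its own brakes. DUSP proteins remove phosphate from MAP kinases in the nucleus (DUSP1, DUSP4, DUSP5) or the cytoplasm (DUSP6), and Sprouty proteins act upstream, between the receptor and RAF.

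Promoter windows from RefSeq (GRCh38.p14, 250 bases before and 50 after an annotated start) were taken for 7 of the 10 genes, in 11 windows. No window of EGR3, DUSP4 or DUSP5 was among those taken, so nothing is said here of their promoters. Windows were searched on both strands for 4 motifs, which do not overlap in these genes. A CArG box is the site of serum response factor, a partner of ERK-activated factors, and was read as CC, then 6 letters that are each A or T, then GG. TGACGTCA is the cAMP response element, CCGGAAGT an ETS site, and GCGTGGGCG an EGR site. The 150 bases just before the start are shown for the windows of EGR1, EGR2 and DUSP1, because these 3 held a match; capitals mark the match, and each is written 5′ to 3′ on the strand of the gene.
EGR1 (chr5:138465329-138465478, plus strand): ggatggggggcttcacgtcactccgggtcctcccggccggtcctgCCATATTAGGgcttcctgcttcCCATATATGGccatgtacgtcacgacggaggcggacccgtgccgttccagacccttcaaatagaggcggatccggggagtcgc
EGR2 (chr10:62816367-62816516, minus strand): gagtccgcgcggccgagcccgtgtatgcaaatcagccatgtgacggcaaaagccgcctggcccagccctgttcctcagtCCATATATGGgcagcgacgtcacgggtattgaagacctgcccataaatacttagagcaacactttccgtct
DUSP1 (chr5:172771196-172771345, minus strand): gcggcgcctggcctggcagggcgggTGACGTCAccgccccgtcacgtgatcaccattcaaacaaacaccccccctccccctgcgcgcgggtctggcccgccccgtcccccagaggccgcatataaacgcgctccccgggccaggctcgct
The EGR1 window held 2 CArG boxes, at 105 to 96 and 83 to 74 bases before the start, and the EGR2 window 1, at 71 to 62 bases before it. The DUSP1 window held 1 TGACGTCA, at 125 to 118 bases before the start. Of all 35116 windows in the table, 1.29% held a CArG box, 1.85% TGACGTCA, 4.14% CCGGAAGT and 0.795% GCGTGGGCG. The windows of IER2, DUSP6, SPRY2 and SPRY4 and the other windows of EGR2 held none of the 4, which says only that these letters are not in those windows. EGR1 and DUSP1, with a match, and DUSP6 and SPRY2, with none, rose in all 4 treatment comparisons. EGR2, with a match, rose only under olaparib and at levels below the filter. Of the others with none, SPRY4 rose only under siPARP1 and IER2 passed in no comparison. Whether a match bears on a response was not tested. A match is a description of the sequence, not of a bound factor.

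TRIM27 RNA measured 0.555 to 0.681 FPKM in KO and 1.27 to 1.502 FPKM in WT libraries under olaparib, 0.946 to 1.04 FPKM in KO and 1.62 to 2.44 FPKM in WT libraries under siPARP1, and 0.547 to 0.665 FPKM in KO and 1.18 to 1.65 FPKM in WT libraries without treatment. KO libraries were below WT libraries in each state, though none was at 0. PARP1 RNA under siPARP1 was 16.8% of the untreated level in KO cells and 19.1% in WT cells. The PARP1 fall was a log2 change of -2.45 in KO cells (limma adjusted p = 1.37e-12) and -2.29 in WT cells (limma adjusted p = 3.63e-12). From transcript sums, which differ from the gene table for PARP1, it was -0.73 in KO cells, which did not pass (limma adjusted p = 0.212), and -1.39 in WT cells (limma adjusted p = 0.0231). By the gene table, PARP1 RNA also fell under olaparib in both genotypes, at a limma adjusted p under 0.05. From transcript sums the olaparib change did not pass, at -0.22 in KO cells (limma adjusted p = 0.738) and -0.96 in WT cells (limma adjusted p = 0.113). Summed FPKM ran from 812699 to 910313 per library, and 14183 to 14584 genes reached 1 FPKM. The step sizes of low values put the depth of the libraries at 0.753 to 1.24 times that of WT untreated library 1; absolute depth is unknown. VIM, a mesenchymal marker, measured 1564 to 2710 FPKM, and KRT8, KRT18, KRT19 and CD44 were all above 141 FPKM. Of 7 luminal and receptor markers, ESR1, PGR, FOXA1, CDH1 and EPCAM stayed at or below 0.532 FPKM (PGR was listed at 0 in 17 of 18 libraries), while ERBB2 measured 14.4 to 32.4 FPKM and GATA3 13.02 to 31.6 FPKM. Of 5 leukocyte and endothelial markers, PTPRC, CD3E, PECAM1 and VWF stayed at or below 0.0476 FPKM, and only CD68 was clearly present, at 4.03 to 24.1 FPKM.

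EGR1 (ENSG00000120738, GRCh38 chromosome 5, 138465490 to 138469315, plus strand) had the widest range of the 8 tested genes. It encodes a zinc finger transcription factor that is a first responder to growth factors and stress. It measured 34.0, 34.2 and 36.5 FPKM in KO libraries under olaparib, against 52.0, 51.1 and 53.3 FPKM in WT libraries under olaparib. Under siPARP1 it measured 9.50, 10.1 and 9.44 FPKM in KO libraries, against 11.5, 11.2 and 11.95 FPKM in WT libraries. Without treatment it measured 3.63, 3.53 and 3.37 FPKM in KO libraries, against 5.98, 5.57 and 6.35 FPKM in WT libraries. The 6 groups did not overlap at any step of their order, olaparib being highest, siPARP1 next and untreated lowest, with WT above KO in each state. The highest group mean was 14.8 times the lowest.

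EGR2 (ENSG00000122877, chromosome 10, 62811996 to 62919900, minus strand), a paralog of EGR1 known for its role in myelinating Schwann cells, was close to undetected. Under olaparib it measured 0.235, 0.147 and 0.221 FPKM in KO libraries, against 0.313, 0.309 and 0.237 FPKM in WT libraries. In all other libraries it was at or below 0.0424 FPKM. The olaparib libraries were the only ones above that level, but all values lie below the filter. In the same fit with no filter, over 41488 genes, the rise on the log2(FPKM + 1) scale was 0.24 in KO cells (limma adjusted p = 3.18e-05) and 0.34 in WT cells (limma adjusted p = 1.37e-06). EGR3 (ENSG00000179388, chromosome 8, 22687659 to 22693302, minus strand), a further paralog, ran from 0.0688 to 0.347 FPKM. Its lowest group was untreated KO cells, at 0.0836 ± 0.0222 FPKM, against 0.216 ± 0.0434 FPKM in untreated WT cells (SD, n = 3). With no filter that difference was -0.17 (limma adjusted p = 0.0484), and the rise under siPARP1 in KO cells was 0.19 (limma adjusted p = 0.00791). These levels are a small number of reads, and no other result is drawn from them.

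IER2 (ENSG00000160888, chromosome 19, 13150415 to 13154908, plus strand) encodes a nuclear protein induced early after stimulation. It measured 2.75, 12.7 and 22.2 FPKM in KO libraries under olaparib, against 3.90, 25.2 and 12.8 FPKM in WT libraries under olaparib. In siPARP1-treated cells it measured 17.0, 17.1 and 18.1 FPKM in KO libraries, against 15.2, 15.1 and 17.0 FPKM in WT libraries. Untreated, it measured 15.4, 14.8 and 15.1 FPKM in KO libraries, against 9.16, 12.6 and 7.33 FPKM in WT libraries. Within each olaparib group the libraries differed more from each other than any 2 of the group means. IER2 passed the test in none of the 9 comparisons, and its standard error of 0.57 for a difference of 2 groups was the largest of the 8 genes. In the untreated state the KO libraries, at 15.1 ± 0.307 FPKM, all lay above the WT libraries, at 9.69 ± 2.65 FPKM (SD, n = 3), but the log2 difference of 0.62 had a 95% interval of -0.61 to 1.85. That interval rests on a spread pooled over all 6 groups, among them the olaparib groups (SD 9.73 FPKM in KO and 10.7 FPKM in WT cells).

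DUSP1 (ENSG00000120129, chromosome 5, 172768090 to 172771195, minus strand) encodes an inducible nuclear phosphatase of p38, JNK and ERK. It measured 37.4, 39.5 and 38.6 FPKM in KO libraries under olaparib, against 42.1, 44.5 and 42.6 FPKM in WT libraries. Under siPARP1 its level was 30.8, 30.5 and 31.1 FPKM in KO libraries, against 30.6, 31.5 and 30.4 FPKM in WT libraries. In untreated cells it measured 17.2, 15.8 and 15.8 FPKM in KO libraries, against 15.3, 17.7 and 17.3 FPKM in WT libraries. All treated libraries stood above all untreated ones, and KO and WT libraries overlapped under siPARP1 and without treatment.

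DUSP5 (ENSG00000138166, chromosome 10, 110497838 to 110511544, plus strand) encodes a nuclear phosphatase selective for ERK. It measured 14.6, 14.5 and 13.8 FPKM in KO libraries under olaparib, against 13.1, 12.9 and 12.4 FPKM in WT libraries. After siPARP1 it measured 10.3, 10.7 and 9.98 FPKM in KO libraries, against 14.3, 14.3 and 13.9 FPKM in WT libraries. Without treatment its level was 6.12, 5.90 and 5.86 FPKM in KO libraries, against 6.08, 6.24 and 6.45 FPKM in WT libraries. The KO libraries were thus the higher ones under olaparib and the lower ones under siPARP1, and overlapped the WT libraries without treatment.

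DUSP6 (ENSG00000139318, chromosome 12, 89347232 to 89353271, minus strand) encodes the cytoplasmic phosphatase most selective for ERK. It measured 28.6, 28.8 and 30.5 FPKM in KO libraries under olaparib, against 38.0, 38.9 and 36.0 FPKM in WT libraries. Under siPARP1 it measured 23.2, 24.8 and 24.5 FPKM in KO libraries, against 43.7, 49.9 and 46.0 FPKM in WT libraries. Without treatment it measured 12.4, 11.4 and 11.4 FPKM in KO libraries, against 15.4, 18.4 and 16.9 FPKM in WT libraries. Every KO library was below every WT library of the same state, and no neighbouring groups overlapped in the order of the 6.

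DUSP4 (ENSG00000120875, chromosome 8, 29333064 to 29350668, minus strand), a nuclear phosphatase of ERK and JNK, was the lowest of the 8 tested genes per length of transcript. It measured 1.76, 1.84 and 1.77 FPKM in KO libraries under olaparib, against 2.196, 2.18 and 2.05 FPKM in WT libraries. In siPARP1-treated cells it measured 0.818, 1.06 and 0.918 FPKM in KO libraries, against 1.23, 1.19 and 0.986 FPKM in WT libraries. Untreated, it measured 1.09, 0.925 and 1.19 FPKM in KO libraries, against 1.47, 1.78 and 1.78 FPKM in WT libraries. Its untreated WT libraries were all above the siPARP1 libraries of both genotypes, whereas the siPARP1 libraries of the other 3 phosphatases were all above the untreated ones.

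SPRY2 (ENSG00000136158, chromosome 13, 80335976 to 80340951, minus strand) encodes a Sprouty inhibitor of receptor signalling, and its highest group mean was 1.67 times its lowest, the smallest such ratio of the 8 genes. It measured 18.1, 18.9 and 18.6 FPKM in KO libraries under olaparib, against 20.5, 20.5 and 21.4 FPKM in WT libraries. Under siPARP1 its level was 19.2, 18.04 and 19.3 FPKM in KO libraries, against 21.96, 22.04 and 22.3 FPKM in WT libraries. In untreated cells it measured 13.4, 12.3 and 13.9 FPKM in KO libraries, against 14.8, 15.5 and 14.6 FPKM in WT libraries. KO libraries lay below WT libraries in each state, with no overlap, and treated libraries lay above untreated ones.

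SPRY4 (ENSG00000187678, chromosome 5, 142310427 to 142326455, minus strand) encodes a second Sprouty protein. It measured 8.64, 4.78 and 8.84 FPKM in KO libraries under olaparib, against 9.04, 7.33 and 9.16 FPKM in WT libraries. After siPARP1 it measured 13.04, 13.5 and 11.8 FPKM in KO libraries, against 15.8, 17.6 and 17.2 FPKM in WT libraries. Without treatment its level was 6.46, 6.32 and 6.20 FPKM in KO libraries, against 7.77, 6.75 and 7.36 FPKM in WT libraries. The siPARP1 libraries stood above all others, and the olaparib libraries overlapped the untreated ones in both genotypes, library 2 being the lowest of each olaparib group.

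**Figure D1:**
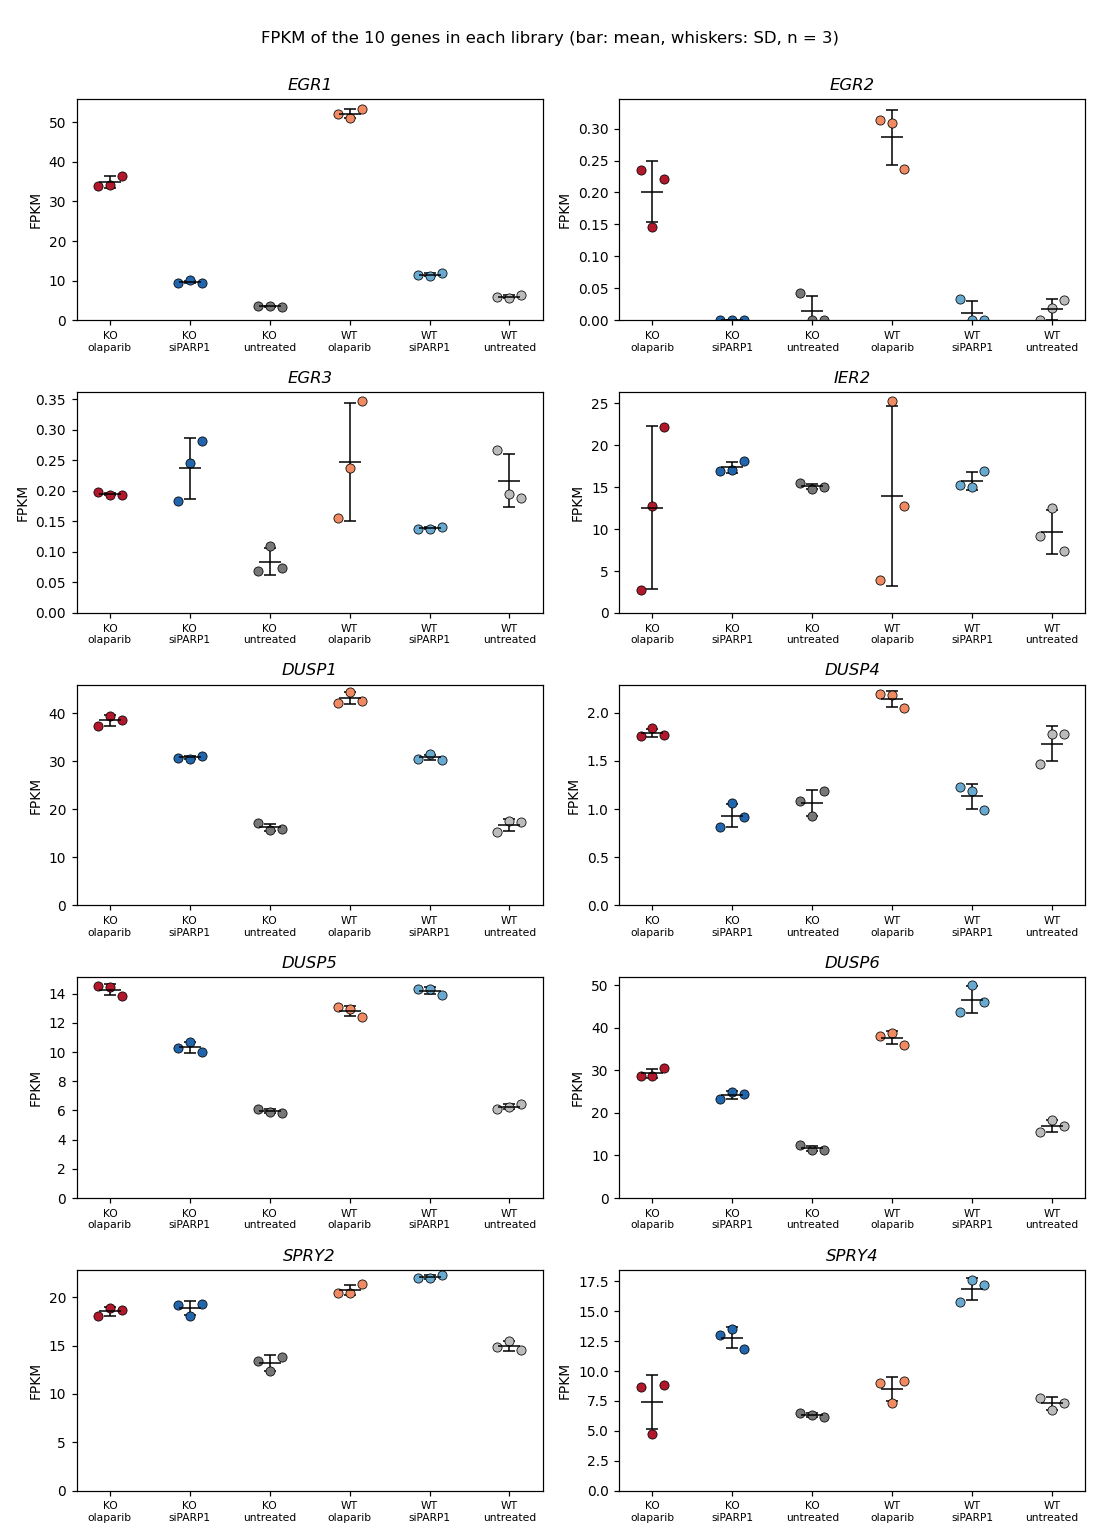
FPKM of the 10 genes in every library, by group (points are libraries, bars the mean, whiskers the SD, n = 3). EGR1 was highest under olaparib (52.1 ± 1.10 FPKM in WT cells), DUSP6 and SPRY4 were highest in siPARP1-treated WT cells (46.5 ± 3.16 and 16.9 ± 0.955 FPKM), and IER2 scattered within the olaparib groups.

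Olaparib was compared with no treatment in each genotype. EGR1, DUSP1, DUSP5, DUSP6, SPRY2 and DUSP4 rose in both KO and WT cells, while IER2 and SPRY4 did not pass the test in either. In KO cells these were 6 of 8 tested genes higher and 0 lower, where 25.2% of all 15764 genes were higher and 22.0% lower. In WT cells they were likewise 6 of 8 higher and 0 lower, where 24.9% of all genes were higher and 20.4% lower. Median-of-ratios scaling turned that balance over all genes, with 49.2% of the called genes higher in KO cells (53.4% as deposited) and 47.7% in WT cells (55.0%). EGR1 rose by a log2 of 2.99 in KO cells (SE 0.05, limma adjusted p = 1.24e-14), a ratio of means of 9.94, and by 2.93 in WT cells (SE 0.05, limma adjusted p = 1.65e-14), a ratio of 8.73. It ranked 16 of 15764 genes by log2 change in KO cells and 14 in WT cells.

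Of the nuclear phosphatases, DUSP1 rose by 1.19 in KO cells (SE 0.05, limma adjusted p = 1.86e-10) and by 1.31 in WT cells (limma adjusted p = 7.50e-11), which placed its mean at 2.37 and 2.57 times the untreated mean of the same genotype. DUSP5 rose by 1.14 in KO cells (SE 0.04, limma adjusted p = 2.76e-11) and by 0.93 in WT cells (limma adjusted p = 2.87e-10). The cytoplasmic DUSP6 rose by 1.25 in KO cells (SE 0.07, limma adjusted p = 1.54e-09) and by 1.11 in WT cells (limma adjusted p = 6.15e-09). These 3 phosphatases and EGR1 were among the 548 largest rises of 15764 genes in each genotype.

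DUSP4 rose less, by 0.43 in KO cells (SE 0.07, limma adjusted p = 0.000184) and by 0.23 in WT cells (limma adjusted p = 0.0180). The WT rise of DUSP4 did not pass without untreated library 1 (0.17, limma adjusted p = 0.0880) or without olaparib library 1 or 2 (limma adjusted p = 0.0537 and 0.0513). SPRY2 rose by 0.46 in KO cells (SE 0.05, limma adjusted p = 1.63e-06) and by 0.45 in WT cells (limma adjusted p = 2.21e-06), a ratio of means of 1.40 in KO cells and 1.39 in WT cells. SPRY4 changed by 0.16 in KO cells (95% interval -0.17 to 0.49) and by 0.19 in WT cells (95% interval -0.14 to 0.52). Without KO olaparib library 2, the SPRY4 value in KO cells was 0.41 and passed (limma adjusted p = 0.00193). The median log2 change of the 8 genes was 0.80 in KO cells and 0.69 in WT cells, against 0.03 over all genes in each.

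PARP1 knockdown was compared with the same untreated libraries, so the comparisons of both treatments share their controls. DUSP6, SPRY4, DUSP5, EGR1, DUSP1 and SPRY2 rose in both genotypes, and DUSP4 fell in WT cells. In KO cells 6 of 8 genes were higher and 0 lower, where 31.9% of all genes were higher and 22.8% lower. In WT cells 6 of 8 were higher and 1 lower, where 29.5% of all genes were higher and 22.3% lower. With median-of-ratios scaling the share of higher genes among those called was 48.4% in KO cells, against 58.4% as deposited, and 47.2% in WT cells, against 57.0%. EGR1 rose by 1.24 in KO cells (SE 0.05, limma adjusted p = 5.54e-11), a ratio of means of 2.75, and by 0.85 in WT cells (SE 0.05, limma adjusted p = 3.82e-09), a ratio of 1.94.

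Among the phosphatases, DUSP6 rose by 0.98 in KO cells (SE 0.07, limma adjusted p = 1.24e-08) and by 1.41 in WT cells (limma adjusted p = 3.71e-10), a ratio of means of 2.06 in KO cells and 2.75 in WT cells. DUSP5 rose by 0.70 in KO cells (SE 0.04, limma adjusted p = 3.21e-09) and by 1.07 in WT cells (limma adjusted p = 6.15e-11). DUSP1 rose by 0.88 in KO cells (SE 0.05, limma adjusted p = 2.96e-09) and by 0.84 in WT cells (limma adjusted p = 6.25e-09). DUSP6 had the larger ratio in WT cells and EGR1 in KO cells, a contrast that is tested below as an interaction.

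DUSP4 fell by 0.33 in WT cells (SE 0.07, limma adjusted p = 0.00159), to 67.5% of the untreated mean; in KO cells its value was -0.10 (95% interval -0.25 to 0.06). Of the Sprouty genes, SPRY4 rose by 0.91 in KO cells (SE 0.15, limma adjusted p = 0.000154) and by 1.11 in WT cells (limma adjusted p = 2.90e-05), and SPRY2 by 0.48 in KO cells (SE 0.05, limma adjusted p = 6.16e-07) and by 0.53 in WT cells (limma adjusted p = 2.58e-07). The median over the 8 genes was 0.79 in KO cells and 0.85 in WT cells, against 0.07 over all genes in each. Olaparib and siPARP1 differed in both dose and duration, so their values stand side by side here and were not tested against each other. On that footing EGR1 had 2.99 under olaparib and 1.24 under siPARP1 in KO cells, and SPRY4 had 0.16 and 0.91.

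**Figure D2:**
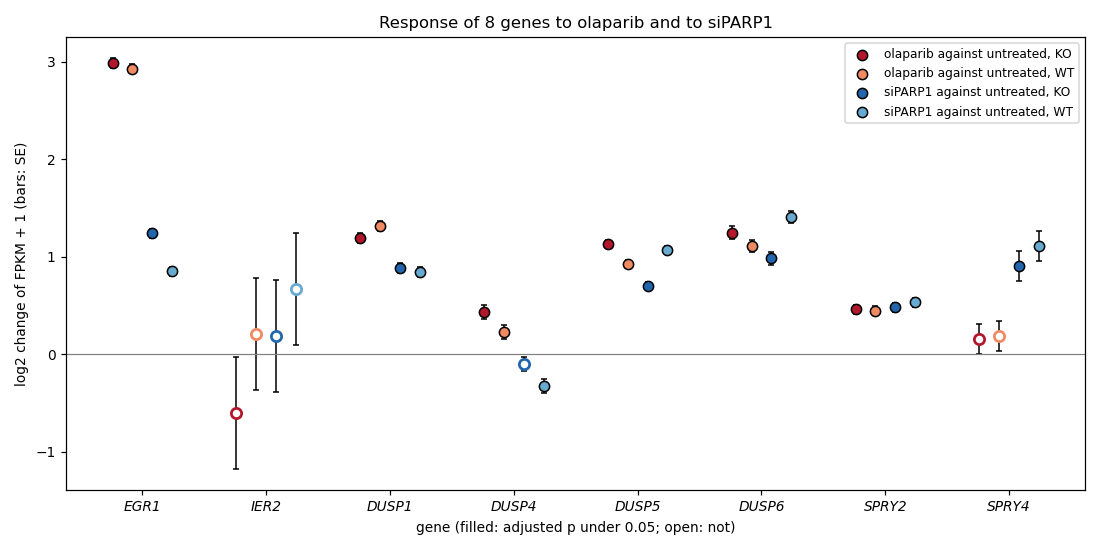
Log2 change of FPKM + 1 against untreated cells of the same genotype for the 8 tested genes (points, bars SE from limma; filled at adjusted p under 0.05). EGR1 stands near 3 under olaparib in both genotypes (2.99 in KO, 2.93 in WT), and DUSP4 is the 1 gene with a called fall (-0.33 under siPARP1 in WT cells).

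Some properties of whole libraries moved with treatment. Loci without a gene name held 44.2 to 45.9% of summed FPKM in KO and 46.0 to 47.3% in WT libraries under olaparib, 43.4 to 44.6% in KO and 44.0 to 47.2% in WT libraries under siPARP1, and 47.8 to 49.3% in KO and 49.0 to 49.8% in WT libraries without treatment. Mitochondrial transcripts made up 23.5 to 25.4% of the FPKM of named genes under olaparib, 25.5 to 28.2% under siPARP1 and 19.0 to 22.1% without treatment, over both genotypes. The summed level of the 5 line markers VIM, CD44, KRT8, KRT18 and KRT19 was 3723 to 4574 FPKM under olaparib and 3070 to 3826 FPKM under siPARP1, against 5163 to 5555 FPKM without treatment. Of these 5, 1 was higher and 3 lower under olaparib in KO cells, 0 higher and 3 lower in WT cells, and 0 higher and 4 lower under siPARP1 in each genotype. The higher one was CD44, at 363 ± 108 FPKM in olaparib-treated KO cells, against 196 ± 19.2 FPKM in untreated KO cells (SD, n = 3). The summed level of the 5 leukocyte and endothelial markers, nearly all of it CD68, was 4.06 to 6.09 FPKM under olaparib and 9.58 to 24.1 FPKM under siPARP1, against 7.25 to 10.9 FPKM without treatment. The 7 luminal and receptor markers summed to 32.8 to 48.9 FPKM under olaparib and 35.3 to 51.5 FPKM under siPARP1, against 31.6 to 42.7 FPKM without treatment. After rescaling over named nuclear genes alone, the same number of the 8 genes passed in each treatment comparison, and across all rescalings, filters and pseudocounts EGR1 under olaparib stayed between 2.96 and 3.28 in KO cells and between 2.88 and 3.11 in WT cells. The part of the marker shifts in these results was not tested.

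Knockout and wild-type cells were compared within each state. EGR1, DUSP6 and SPRY2 were lower in KO cells in all 3 states, DUSP4 was lower without treatment, and DUSP5 was higher under olaparib and lower under siPARP1. Without treatment 4 of 8 genes were lower and 0 higher in KO cells, where 10.9% of all genes were lower and 9.58% higher. The median over the 8 genes was -0.17, against -0.01 over all genes. EGR1 fell by 0.63 (SE 0.05, limma adjusted p = 5.89e-07), to 58.9% of the WT mean, and DUSP6 fell by 0.49 (SE 0.07, limma adjusted p = 8.93e-05), to 69.3%. DUSP4 fell by 0.37 (SE 0.07, limma adjusted p = 0.00194), to 63.5% of the WT mean; at about 1 FPKM the added 1 shrinks its log2 value. SPRY2 fell by 0.17 (SE 0.05, limma adjusted p = 0.0189), to 88.3%, but did not pass when libraries were rescaled to the same total (limma adjusted p = 0.0612), when the 2 groups were fitted alone (limma adjusted p = 0.131), or without library 2 of either group (limma adjusted p = 0.0755 and 0.0863). Values that did not pass were -0.04 for DUSP1 (95% interval -0.15 to 0.07), -0.06 for DUSP5 (-0.15 to 0.03) and -0.18 for SPRY4 (-0.51 to 0.15).

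Under olaparib 3 of 8 genes were lower and 1 higher in KO cells, where 7.16% of all genes were lower and 5.68% higher. EGR1 fell by 0.57 (SE 0.05, limma adjusted p = 3.10e-06), to 66.99% of the WT mean, and DUSP6 by 0.35 (SE 0.07, limma adjusted p = 0.00226), to 77.8%. DUSP5 was higher by 0.15 (SE 0.04, limma adjusted p = 0.0300) and SPRY2 lower by a log2 of -0.16 (SE 0.05, limma adjusted p = 0.0393). Both of these small differences were lost in several settings: DUSP5 when the 2 groups were fitted alone (limma adjusted p = 0.126) and without 4 of the 6 libraries (limma adjusted p = 0.0636 to 0.118), and SPRY2 without any 1 of the 6 libraries (limma adjusted p = 0.0619 to 0.136). SPRY2 was lost in 11 of 16 settings, among them median-of-ratios scaling (limma adjusted p = 0.0728) and rescaling to the same total (limma adjusted p = 0.133). With the 2 groups fitted alone, EGR1 and DUSP6 were the 2 genes called. DUSP1 was at -0.16 (limma adjusted p = 0.0585) and DUSP4 at -0.17 (limma adjusted p = 0.156).

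Under siPARP1 4 of 8 genes were lower and 0 higher in KO cells, where 11.2% of all genes were lower and 11.8% higher. DUSP6 fell by 0.92 (SE 0.07, limma adjusted p = 2.20e-07), to 51.9% of the WT mean, and ranked 184 of 15764 genes from the lowest. DUSP5 fell by 0.43 (SE 0.04, limma adjusted p = 4.98e-06), to 72.7%. EGR1 fell by 0.23 (SE 0.05, limma adjusted p = 0.00344), to 83.7%, and SPRY2 by 0.22 (SE 0.05, limma adjusted p = 0.00349), to 85.3%. DUSP1 did not separate the genotypes: 30.8 ± 0.293 FPKM in KO cells and 30.8 ± 0.592 FPKM in WT cells (SD, n = 3), with a 95% interval of the log2 difference from -0.11 to 0.11. SPRY4 was at -0.37 (limma adjusted p = 0.0986), with no overlap between the libraries. Rescaling libraries to the same total changed the share of higher calls over all genes from 46.8% to 59.0% without treatment, from 44.2% to 58.6% under olaparib and from 51.3% to 61.4% under siPARP1.

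**Figure D3:**
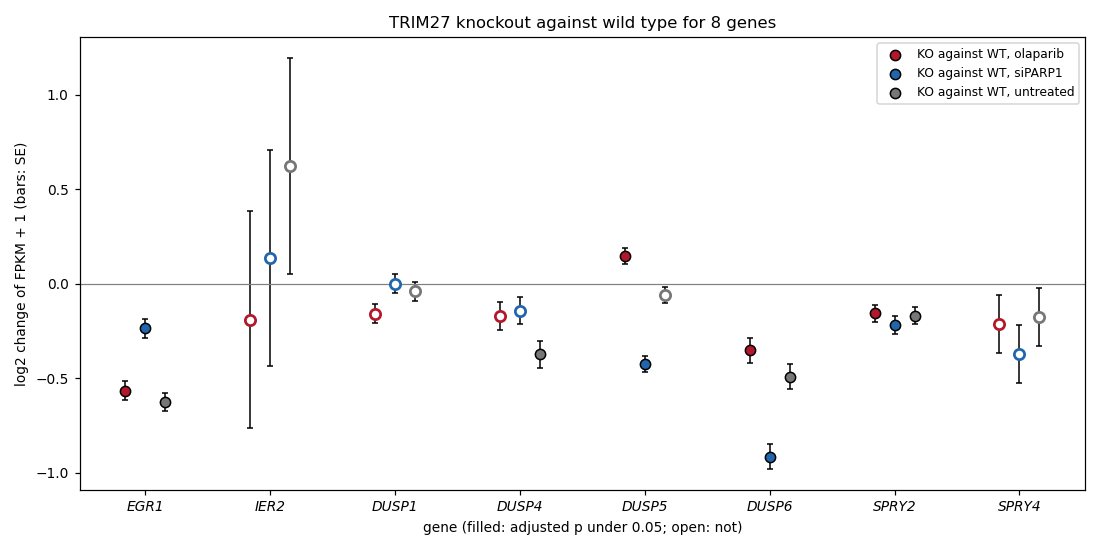
Log2 difference of KO from WT cells in FPKM + 1 under olaparib, under siPARP1 and without treatment (points, bars SE from limma; filled at adjusted p under 0.05). EGR1, DUSP6 and SPRY2 lie below 0 in all 3 states, and DUSP5 is at 0.15 under olaparib and -0.43 under siPARP1.

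Whether the response to treatment differed between genotypes was tested as an interaction, the log2 change in KO cells minus that in WT cells. For olaparib, 0 of the 8 genes passed, where 3.06% of all genes did; 1, DUSP5, had an unadjusted p under 0.05 (0.21, SE 0.06, limma adjusted p = 0.0736), and it passed when only genes reaching 5 FPKM were tested (limma adjusted p = 0.0468). The interaction of EGR1 was 0.06, with a 95% interval of -0.09 to 0.21, and 0.17 with a pseudocount of 0.1 (limma adjusted p = 0.306). For DUSP6 it was 0.14 (-0.06 to 0.34), for DUSP1 -0.12 (-0.27 to 0.04) and for SPRY2 0.01 (-0.13 to 0.15).

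For siPARP1, 3 of the 8 genes passed, where 5.26% of all genes did. The response of EGR1 was larger in KO cells, by 0.39 (SE 0.07, limma adjusted p = 0.00485). The responses of both ERK-selective phosphatases were smaller in KO cells, DUSP5 by a log2 of -0.36 (SE 0.06, limma adjusted p = 0.00200) and DUSP6 by -0.42 (SE 0.09, limma adjusted p = 0.0159). EGR1 therefore went one way and DUSP5 and DUSP6 the other: the EGR1 mean of KO cells was 83.7% of the WT mean under siPARP1 and 58.9% of it without treatment, while the DUSP6 mean was 51.9% and 69.3% of it. The DUSP6 interaction did not pass when the 4 groups were fitted alone (limma adjusted p = 0.0573). DUSP4 had 0.23 (limma adjusted p = 0.234), SPRY4 -0.20 (limma adjusted p = 0.696), SPRY2 -0.05 (limma adjusted p = 0.752) and DUSP1 0.04 (limma adjusted p = 0.825). Rescaling over named nuclear genes changed the share of higher calls over all genes in this interaction from 52.1% to 65.3%.

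The transcript table splits each gene into annotated transcripts, as estimated by the authors, and its sums equal the gene values for these genes. These shares are estimates from short reads and were not tested. Most DUSP6 was assigned to ENST00000279488 (3 exons), and smaller shares to ENST00000547291 and ENST00000308385 (2 exons each). ENST00000547291 held 15.6% of DUSP6 in KO and 20.8% in WT cells under olaparib, 10.5% in KO and 12.7% in WT cells under siPARP1, and 6.01% in KO and 3.71% in WT cells without treatment. ENST00000308385 held 8.69% in KO and 11.4% in WT cells under olaparib, 12.5% in KO and 1.87% in WT cells under siPARP1, and was at 0 in untreated KO cells and 2.39% in untreated WT cells. It varied within groups, at 1.99, 5.64 and 0 FPKM in KO libraries under olaparib. In WT libraries it was at 2.62, 0 and 0 FPKM under siPARP1 and at 1.21, 0 and 0 FPKM without treatment. In FPKM, ENST00000547291 was at 5.09, 4.11 and 4.48 in KO and 8.73, 7.41 and 7.31 in WT libraries under olaparib, against 0.686, 0.717 and 0.711 in untreated KO and 0.829, 0.468 and 0.587 in untreated WT libraries. Treated libraries did not overlap untreated ones for this transcript in either genotype. Most IER2 was assigned to ENST00000588173 (1 exon), at 2.43, 12.1 and 22.1 FPKM in KO and 3.21, 19.8 and 12.1 FPKM in WT libraries under olaparib. A second transcript, ENST00000292433 (2 exons), also varied within groups, at 0.324, 0.246 and 0.132 FPKM in KO and 0.691, 5.49 and 0.381 FPKM in WT libraries under olaparib, and at 7.49, 0.253 and 0.00118 FPKM in untreated WT libraries. SPRY4 was divided mainly between ENST00000434127, a protein-coding transcript, and ENST00000643792, annotated as a retained intron; in untreated KO cells ENST00000344120, also protein-coding, held 28.6%. In KO olaparib library 2, the lowest for SPRY4, ENST00000434127 was at 0.127 FPKM, against 6.05 and 3.48 FPKM in libraries 1 and 3, while ENST00000643792 was at 4.25 FPKM, against 2.12 and 4.29 FPKM. In untreated KO library 1 ENST00000434127 was likewise low, at 0.1599 FPKM, and ENST00000344120 was at 4.74 FPKM.

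**Figure D4:**
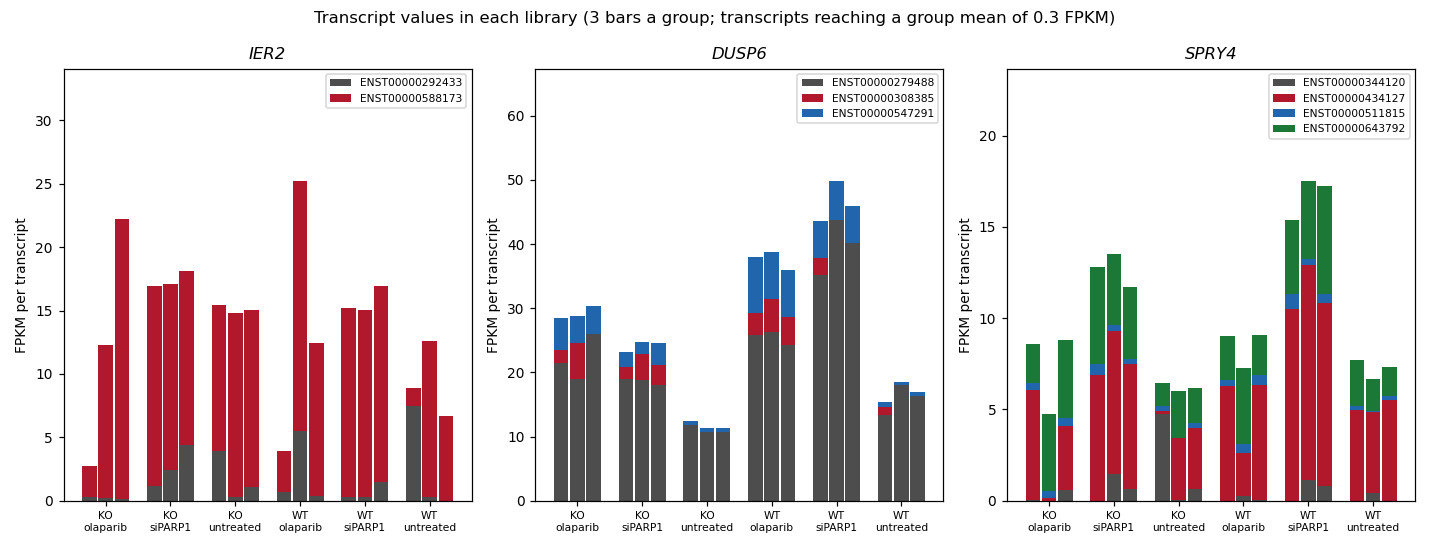
FPKM assigned to each annotated transcript of IER2, DUSP6 and SPRY4, stacked per library (3 bars a group; transcripts reaching a group mean of 0.3 FPKM). The DUSP6 transcript ENST00000547291 makes up 20.8% of DUSP6 in olaparib-treated WT cells and 3.71% in untreated WT cells, and IER2 differs between libraries of the same olaparib group.

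The pattern over the 18 libraries was compared between genes by Pearson's r of log2(FPKM + 1), as a description; the libraries share treatments and scaling, so r reflects the 6 groups. Among the tested genes, DUSP6 and SPRY2 were most alike (0.97), then DUSP1 and DUSP5 (0.93), DUSP5 and DUSP6 (0.92) and EGR1 and DUSP1 (0.92). EGR1 and SPRY4 had 0.04, and no gene was above 0.18 with IER2. Of 8822 other genes with a symbol and a mean of at least 5 FPKM, FOS was most like EGR1 (0.99), followed by ATP6V1C1 and MOSPD1 (0.99 each). The most like genes were SEC31B for DUSP1 (0.99), G0S2 for DUSP5 (0.98), HSPA4 for DUSP6 (0.99), APMAP for SPRY2 (0.98), MPHOSPH6 for SPRY4 (0.95) and HMGN2P3 for DUSP4 (0.96). The highest for IER2 was ATP5IF1, at 0.84.

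Other genes of the cascade were read from 6 lists. Over all genes, 25.2% were higher and 22.0% lower under olaparib in KO cells, and 24.9% and 20.4% in WT cells. Under siPARP1 these shares were 31.9% and 22.8% in KO cells, and 29.5% and 22.3% in WT cells. For untreated KO against WT cells they were 9.58% and 10.9%. Of 25 other immediate early genes 23 were measured; under olaparib 13 were higher and 0 lower in KO cells, and 15 higher and 0 lower in WT cells, with medians of 0.42 and 0.49. FOS, a partner in the AP-1 factor, measured 57.2, 57.2 and 57.8 FPKM in KO cells under olaparib, against 1.36, 1.08 and 1.55 FPKM in untreated KO cells; it rose by a log2 of 4.65 (SE 0.08, limma adjusted p = 2.70e-14). In WT cells FOS measured 98.9, 104.0 and 103.3 FPKM under olaparib, against 3.82, 3.83 and 4.12 FPKM without treatment, a rise of 4.39 (SE 0.08, limma adjusted p = 4.94e-14). Its relative FOSB rose by 1.98 in KO cells and 2.11 in WT cells. Under siPARP1 12 of the 23 were higher and 5 lower in KO cells, and 10 higher and 5 lower in WT cells. The medians were 0.28 and 0.05, against 0.07 over all genes in each genotype. FOS then rose by 2.13 in KO cells and 0.89 in WT cells, and CCN2, a matricellular growth factor gene, by 1.44 and 1.51, while JUN fell by 0.94 in KO cells and by 0.47 in WT cells. In untreated KO against WT cells 5 of the 23 were higher and 6 lower, with JUN at 0.60 and IER5 at 0.46 above, and GEM at -0.96 and IER3 at -0.53 below.

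The repressors of EGR factors and the other brakes did not share 1 direction. Of 4 other EGR family and NAB genes 2 were measured, and NAB2, a corepressor that EGR1 itself induces, rose under olaparib by 0.84 in KO cells (limma adjusted p = 0.00293) and by 0.91 in WT cells (limma adjusted p = 0.00174). NAB2 also rose under siPARP1, by 0.62 in KO cells and 0.53 in WT cells. The KO rise did not pass without siPARP1 library 3 (0.47, limma adjusted p = 0.0786). The WT rise did not pass without untreated library 1 (0.33, limma adjusted p = 0.187) or siPARP1 library 3 (0.30, limma adjusted p = 0.196). Nor did it pass with no filter, median-of-ratios or nuclear-gene scaling, or the 2 groups fitted alone (limma adjusted p = 0.0545 to 0.138). NAB1, the other measured gene, fell by 0.42 under siPARP1 in WT cells (limma adjusted p = 0.0497). That fall did not pass in several settings (limma adjusted p = 0.0502 to 0.265). Of 10 other MAP kinase phosphatases 7 were measured; under olaparib 2 were higher and 2 lower in KO cells, and 3 higher and 1 lower in WT cells. DUSP7, a cytoplasmic relative of DUSP6, rose by 0.46 in KO cells and 0.33 in WT cells, and DUSP14 by 0.60 in KO cells. Under siPARP1 1 was higher and 0 lower in KO cells, and 1 higher and 2 lower in WT cells, where DUSP7 fell by 0.45. DUSP22 was the gene that rose in both, by 0.39 in KO cells and 0.24 in WT cells. Its WT rise (limma adjusted p = 0.0357) did not pass in several settings, median-of-ratios scaling among them (limma adjusted p = 0.136). In untreated KO against WT cells 0 were higher and 1 lower. Over all genes, the shares higher and lower were 25.2% and 22.0% under olaparib in KO cells and 24.9% and 20.4% in WT cells. Under siPARP1 they were 31.9% and 22.8% in KO cells and 29.5% and 22.3% in WT cells. Without treatment 9.58% were higher and 10.9% lower in KO than in WT cells.

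Of 8 other Sprouty, SPRED and related inhibitors 7 were measured; under olaparib 2 were higher and 4 lower in KO cells, and 1 higher and 1 lower in WT cells. Under siPARP1 2 were higher and 0 lower in KO cells, and 3 higher and 1 lower in WT cells. ERRFI1, an inhibitor of the EGF receptor, rose under siPARP1 by 0.60 in KO cells and 0.99 in WT cells, and fell under olaparib by 0.52 in KO cells. Without treatment 2 were higher and 1 lower in KO than in WT cells, ERRFI1 being higher by 0.48 (SE 0.05, limma adjusted p = 1.73e-05). Of all genes, 25.2% were higher and 22.0% lower under olaparib in KO cells, and 24.9% and 20.4% in WT cells. The shares under siPARP1 were 31.9% and 22.8% in KO cells, and 29.5% and 22.3% in WT cells. Those of KO against WT without treatment were 9.58% and 10.9%.

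Of 18 genes listed as ERK output 16 were measured, and they went both ways under olaparib: 7 higher and 5 lower in KO cells, and 8 higher and 6 lower in WT cells, with medians of 0.07 and 0.12. Over all genes, 25.2% were higher and 22.0% lower in KO cells, and 24.9% and 20.4% in WT cells. HBEGF, an EGF receptor ligand, rose by 1.19 in KO cells (limma adjusted p = 6.79e-09) and by 0.99 in WT cells (limma adjusted p = 5.49e-08). EREG, a ligand of the same receptor family, fell by 1.503 in KO cells and by 1.51 in WT cells. CCND1, which encodes cyclin D1, rose by 1.02 under olaparib in KO cells. The olaparib interactions of the 16 genes ran from -0.35 to 0.27, so its value in WT cells was also a rise. Under siPARP1 CCND1 fell by 0.12 in KO cells and by 0.31 in WT cells. Its KO fall did not pass when the 2 groups were fitted alone (limma adjusted p = 0.0772). Under siPARP1 7 of the 16 were higher and 2 lower in KO cells, where 31.9% of all genes were higher and 22.8% lower. In WT cells 6 were higher and 3 lower, where the shares over all genes were 29.5% and 22.3%. In untreated KO against WT cells 4 were higher and 5 lower, where 9.58% of all genes were higher and 10.9% lower.

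Of 24 components of the cascade itself 23 were measured. Under olaparib 6 were higher and 5 lower in KO cells, and 5 higher and 6 lower in WT cells, with medians of -0.01 in each; these counts are near the shares over all genes, 25.2% higher and 22.0% lower in KO cells and 24.9% and 20.4% in WT cells. HRAS rose by 1.06 in KO cells (limma adjusted p = 0.000106) and by 0.73 in WT cells (limma adjusted p = 0.00241). Under siPARP1 9 were higher and 5 lower in KO cells, where 31.9% of all genes were higher and 22.8% lower. In WT cells 5 were higher and 5 lower, where the shares were 29.5% and 22.3%. NRAS rose by 0.66 in KO cells and 0.59 in WT cells. EGFR fell by 0.75 in KO cells and by 0.78 in WT cells, but the KO fall did not pass from transcript sums (limma adjusted p = 0.106). ELK3 fell under siPARP1 too, by 1.77 in KO cells and by 1.49 in WT cells, where it did not pass in several settings (limma adjusted p = 0.0603 to 0.0840). In untreated KO against WT cells, where 10.9% of all genes were lower, 2 of the 23 were lower, BRAF at -0.28 and ELK1 at -0.18. When the 2 groups were fitted alone neither passed (limma adjusted p = 0.0653 for BRAF and 0.0966 for ELK1), and ELK1 did not pass when any 1 of the 3 WT libraries, KO library 1 or KO library 2 was left out (limma adjusted p = 0.0527 to 0.120).

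**Figure D5:**
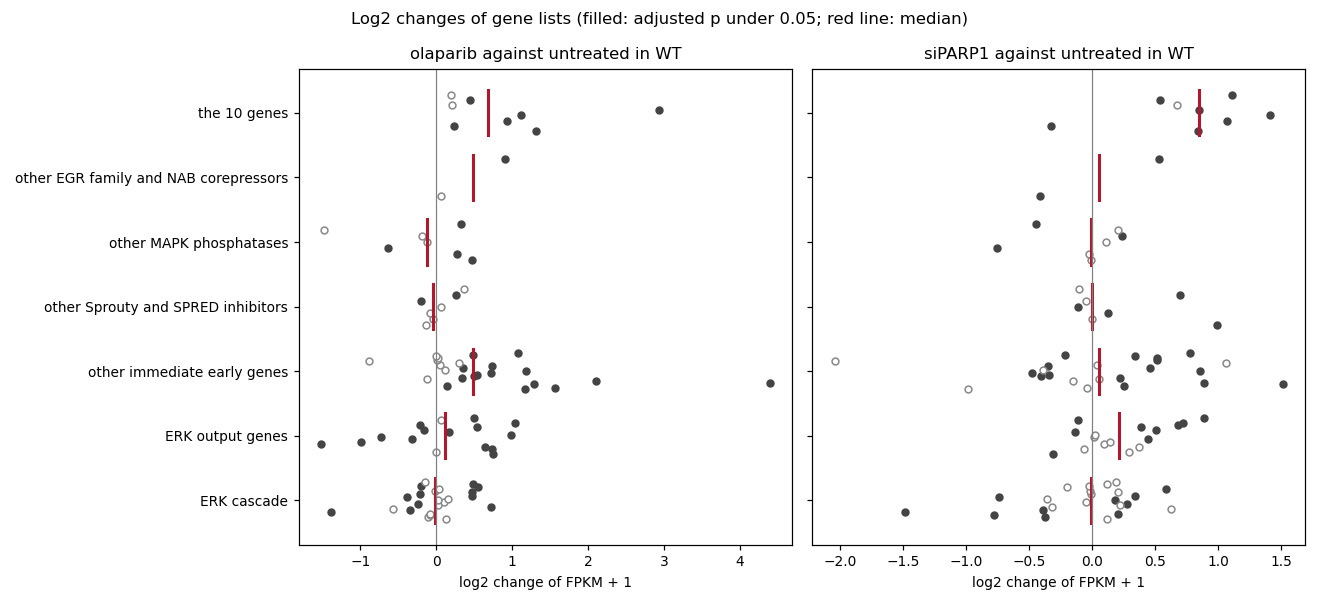
Log2 change of FPKM + 1 in WT cells under olaparib and siPARP1 for the measured genes of 7 lists, the 10 genes at the top (points are genes, filled at limma adjusted p under 0.05; red lines are medians). The medians of the 10 genes (8 measured) are 0.69 and 0.85, and FOS is the right-most point among the immediate early genes under olaparib, at 4.39.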

How the data were processed

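Poly(A)-selected RNA was sequenced in 18 libraries. The submitters' processing notes list StringTie 2.2.1, featureCounts 2.0.3, HISAT2 2.2.1, fastp 0.23.2 and DESeq2 1.38.3 beside the GRCh38 build; which of them made the values, and the annotation release and strand setting, are not given in the sources used here. FPKM values per gene and per transcript were deposited by the authors; they are relative to the library total, so each value also moves with the other transcripts. Identifiers were matched to symbols and to positions in GENCODE 29.

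A gene was tested if 3 or more of the 18 libraries reached 1 FPKM (15764 genes). Tests used limma 3.58.1 (R 4.3.3) on log2(FPKM + 1), in 1 fit of the 6 groups with 12 residual degrees of freedom. Benjamini-Hochberg adjustment ran over all tested genes of each of 9 comparisons, and a gene was called at an adjusted p under 0.05. Log2 values understate the change of low genes. Alternatives changed the pseudocount, filter, scaling, source table, block, groups fitted or left out 1 library. The 10 genes and the lists were chosen with earlier results of these data known. Some listed genes are not reported here and are left out of the list counts. Genes eligible to be named from each list were up to 2 called rises and 2 called falls whose higher group averaged 5 FPKM or more, and for each tested gene the 3 others of highest correlation; not all of these are printed. RefSeq promoter windows came from a table of GRCh38.p14.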

Additional observations from a re-analysis of the deposited data

Results flagged for a closer look

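The responses of 3 genes to siPARP1 differed between genotypes by the test of the difference itself, the log2 change in KO cells minus that in WT cells. EGR1 differed by 0.39 (limma adjusted p = 0.00485): it rose by 1.24 in KO cells and 0.85 in WT cells. DUSP5 differed by -0.36 (limma adjusted p = 0.00200): it rose by 0.70 in KO cells and 1.07 in WT cells. DUSP6 differed by -0.42 (limma adjusted p = 0.0159): it rose by 0.98 in KO cells and 1.41 in WT cells.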

How the results depend on the processing

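Of 40 results of the 8 genes past the threshold, 35 stayed past it, in the same direction, in each of the 28 settings that bear on them (10 analysis settings and 18 that leave out 1 library); the other 5 are SPRY2 in KO against WT without treatment and under olaparib, DUSP4 under olaparib in WT cells, DUSP5 in KO against WT under olaparib, and the siPARP1 interaction of DUSP6. The number of genes called in KO against WT under olaparib was 4, and 2 when only the compared groups were fitted; leaving out 1 library gave 2 to 3. For the olaparib interaction it was 0, and 1 with a 5 FPKM filter. IER2 under siPARP1 passed only when the compared groups were fitted alone (limma adjusted p = 0.0243 in KO cells and 0.0228 in WT cells), as did SPRY4 in KO against WT under siPARP1 (0.0267). DUSP1 in KO against WT under olaparib passed with the 5 FPKM filter (0.0459). Values that changed sign all belonged to results that had not passed: DUSP1 in KO against WT under siPARP1 was 0.0385 after rescaling to the same total and 0.0357 over named nuclear genes. Over the settings that leave out 1 library, it ran from -0.0100 to 0.0151; IER2 under olaparib from -1.17 to 0.15 in KO cells and from -0.35 to 0.86 in WT cells; IER2 in KO against WT under olaparib from -0.84 to 0.56, and SPRY4 there from -0.34 to 0.0401; and the olaparib interactions of SPRY2 from -0.0334 to 0.0451 and of SPRY4 from -0.17 to 0.22. The causes were not tested.

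Over all genes, fitting only the compared groups lowered the calls from 3227 to 2144 in KO against WT without treatment, from 3634 to 2213 under siPARP1 and from 829 to 500 in the siPARP1 interaction, and leaving out WT untreated library 1 lowered the olaparib interaction from 482 to 313. Median-of-ratios scaling changed the share of higher calls under siPARP1 from 58.4% to 48.4% in KO cells and from 57.0% to 47.2% in WT cells, and under olaparib from 53.4% to 49.2% in KO cells and from 55.0% to 47.7% in WT cells. Same-numbered libraries did not deviate together (correlations of -0.0707 to 0.0871 over 45 pairs, none over 0.1). No pairing by number was seen, but a weak one, or one in few genes, could be missed this way. With the replicate block, SPRY2 in KO against WT under olaparib was the 1 result of the 8 genes lost (limma adjusted p = 0.0511), and the calls over all genes in KO against WT without treatment numbered 1473 higher and 1646 lower. Of 76 results of genes named from the lists, 57 stayed on the same side of the threshold in every setting. Depth is unknown.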
